A study of Mus musculus with 15 samples.

Results

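Chromosome 18 of the mouse carried 2720 of the 75920 islands of trimethylated lysine 27 of histone H3 (H3K27me3) that were listed in 6 liver ChIP-seq libraries. An island is a stretch of genome in which the authors' caller, SICER, found more ChIP reads than control reads, and each was listed separately for each library. Every listed island on chromosome 18 was taken. The chromosome was chosen by its covered length at 40 h, which was higher than at 30 h, so the values at 40 h describe that choice, support nothing beyond it and carry no test.

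All mice were C57Bl/6 and were 8 to 12 weeks old, fed a normal diet, and liver tissue was used. WT replicate 1 and the Uhrf1hepKO library (KO, in which hepatocytes lack Uhrf1) were labelled as baseline. The other 4 libraries were WT livers labelled as regenerating, of round 3, at 0, 30, 40 and 96 h, and the 0 h library served as the other WT baseline library. The labels do not state how regeneration was started, which Cre driver made the deletion, or whether libraries came from separate or pooled animals. There was 1 library at each later time and 1 KO library, so no comparison below has a p-value, and any spread within WT is that of 2 libraries. Liver was profiled as bulk tissue, so a change in the mark within cells and a change in the mix of cells cannot be told apart.

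H3K27me3 is laid down by Polycomb repressive complex 2 and marks genes kept silent in a tissue. In adult liver it typically covers genes of other lineages, such as transcription factors of the embryo and receptors and channels of neurons. Hepatocytes re-enter the cell cycle during regeneration, and as DNA replicates the marked histones are shared between the daughter strands and the mark is written again. UHRF1 recruits the maintenance DNA methyltransferase to newly replicated DNA. Chromosome 18 holds the clustered protocadherins, which are adhesion genes expressed from alternative promoters in neurons, and the desmosomal cadherins of epithelia. It also holds the melanocortin receptor genes Mc2r, Mc4r and Mc5r, and Ttr, a transport protein gene that hepatocytes transcribe strongly.

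Chromosome 18 had 607 islands at 40 h, after islands over a false discovery rate (FDR) of 0.01 had been left out. It had 347 in WT replicate 1, 428 in KO, 419 at 0 h, 403 at 30 h and 503 at 96 h by the same rule. The 40 h count thus lay above each of the other 5. The filter removed 0, 0, 2, 2, 5 and 4 islands of WT replicate 1, KO, 0 h, 30 h, 40 h and 96 h. Chromosome 17 held 432 islands at 40 h against 467 at 30 h, and chromosome 19 held 406 against 408.

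Islands covered 13.8 Mb of chromosome 18 in WT replicate 1, 18.04 Mb in KO and 15.0 Mb at 0 h. They covered 13.8 Mb at 30 h, 19.9 Mb at 40 h and 15.6 Mb at 96 h. The 40 h length was the highest of the 6, with KO next. Over the same step from 30 to 40 h, chromosome 17 went from 15.8 to 13.5 Mb and chromosome 19 from 15.3 to 14.2 Mb. The 40 h list was the shortest of all over the whole genome, at 378 Mb against 417 Mb at 30 h.

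**Figure D1:**
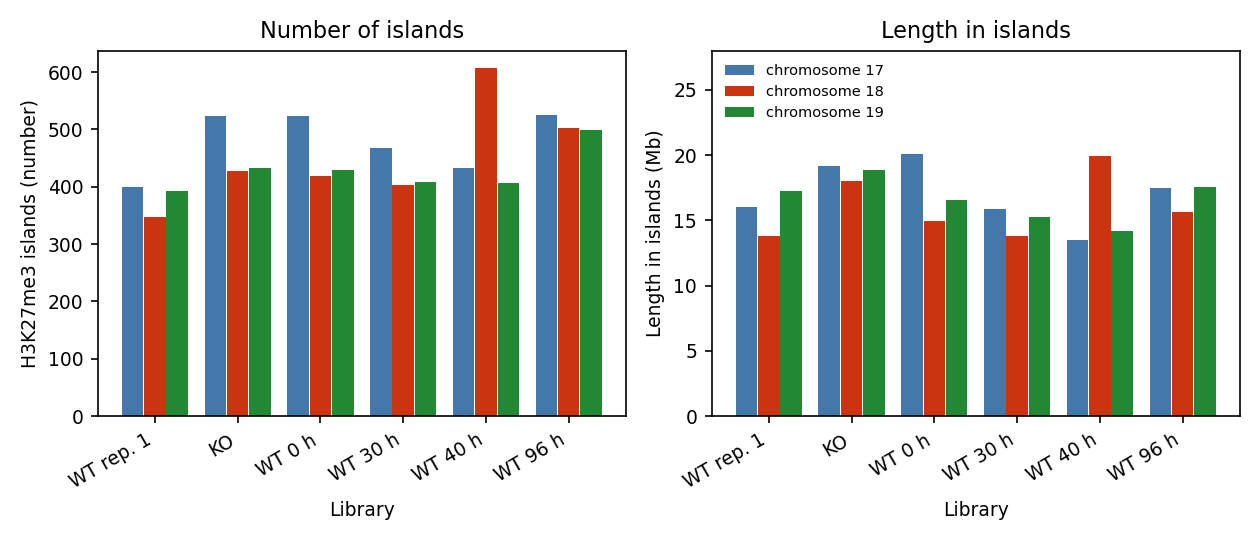
Number of H3K27me3 islands (left) and length in islands in Mb (right) on chromosomes 17, 18 and 19 in each of the 6 libraries, at an FDR of 0.01 or below; each bar is 1 library. Chromosome 18 reaches 607 islands and 19.9 Mb at 40 h, above chromosomes 17 and 19, and is below chromosome 17 in the other 5 libraries.

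The share of all island length that lay on chromosome 18 was 3.30% in WT replicate 1, 3.61% in KO, 3.10% at 0 h and 3.31% at 30 h. It was 5.26% at 40 h and 3.41% at 96 h. By this share, chromosome 18 ranked 19th of 19 autosomes in WT replicate 1 and at 0, 30 and 96 h, 18th in KO and 9th at 40 h. Its length at 40 h was 1.44 times that at 30 h. The other 18 autosomes had ratios from 0.820 (chromosome 7) to 0.935 (chromosome 3), so none of them overlapped it. From 40 to 96 h the ratio was 0.785 on chromosome 18 and 1.13 to 1.35 on the other 18. Both contrasts contain the 40 h library. In the contrast of 96 h with 0 h, which does not, chromosome 18 had a ratio of 1.04, within the range of 0.802 to 1.11 of the others.

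**Figure D2:**
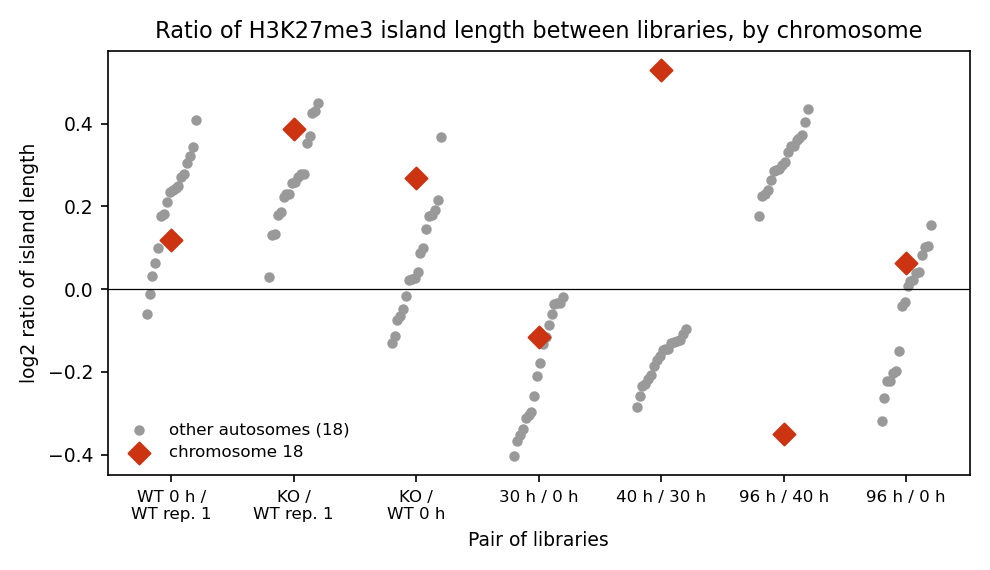
Log2 ratio of H3K27me3 island length between pairs of libraries; each grey point is 1 of the 18 other autosomes, in rising order, and the red diamond is chromosome 18. Chromosome 18 lies apart from the other 18 in both pairs that set the 40 h library against a neighbouring time, and within their range in the 5 pairs without the 40 h library.

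The median island length over each list did not rise at 40 h, but islands found at both times were longer. Over all islands the median on chromosome 18 was 28, 27, 23, 26, 24 and 23 kb in WT replicate 1, KO, 0 h, 30 h, 40 h and 96 h. Islands of 100 kb or more numbered 21 at 40 h and 13 at 30 h, against 34 in KO. The median gap between neighbouring islands was 34.5 kb at 30 h and 31 kb at 40 h, and it was 49.5 kb in WT replicate 1. In the 182 pairs of 30 and 40 h islands that covered at least 50% of each other, the 40 h island had a median of 1.06 times the length of the 30 h one, against 0.964 in the pairs of the other 18 autosomes (0.925 to 1 by chromosome). The greater length at 40 h thus came both with more islands and with longer islands where both lists had one.

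The raw read columns followed the length. The 40 h islands of chromosome 18 held 639802 ChIP reads and 1260392 control reads, and the 30 h islands held 479073 and 884467. Of all ChIP reads in islands, chromosome 18 had 3.16% in WT replicate 1, 3.55% in KO, 2.99% at 0 h, 3.16% at 30 h, 5.01% at 40 h and 3.28% at 96 h. Its share of the control reads in islands moved alongside, at 3.22%, 3.59%, 3.02%, 3.11%, 4.89% and 3.35% in the same order. Both shares were taken over islands called separately in each library, so they move with the length called.

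Raw read density on chromosome 18, not adjusted for library depth, was not higher at 40 h. The islands had 32.1 ChIP reads per kb at 40 h and 34.7 at 30 h, and chromosomes 17 and 19 had 34.6 and 32.2 at 40 h and 36.3 and 34.7 at 30 h. Control reads were 63.3 per kb at 40 h and 64.1 at 30 h on chromosome 18. The same control library underlay the 30, 40 and 96 h lists, since islands with identical bounds had equal control counts in 250 of 250 cases between 30 and 40 h, 221 of 221 between 30 and 96 h and 251 of 251 between 40 and 96 h. The baseline lists of WT replicate 1 and KO likewise shared a control (414 of 414), whereas the 0 h list had another (1 equal of 133 shared with 30 h). Total reads per library were not in the lists. The authors' scale of ChIP to control was 0.369 at 30 h, 0.342 at 40 h and 0.438 at 96 h, so the 40 h ChIP library was the shallowest of these 3 relative to that control. With that scale applied, the ratio of summed ChIP to control reads on chromosome 18 was 1.47 at 30 h and 1.49 at 40 h. It was 1.42 and 1.45 on chromosome 17, and 1.48 and 1.49 on chromosome 19.

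The authors' fold, which is the ChIP to control ratio after that scaling, was then compared in islands found at both times. A pair was taken where each island covered at least 50% of the other. On chromosome 18 the fold at 40 h was a median of 1.03 times that at 30 h over 182 pairs, with quartiles of 0.984 and 1.08. The medians of the other 18 autosomes ran from 0.988 to 1.01 and that over their 4746 pairs was 0.996. The ratio was above 1 in 118 of the 182 pairs (64.8%), against 48.6% of all pairs. It reached 1.2 in 2 of the 182 pairs, against 1.12% of all pairs. Enrichment inside islands present at both times thus differed by about 3% on chromosome 18, far less than covered length, and both values come from the contrast that chose the chromosome. At 96 h the fold was a median of 1.05 times that at 40 h on chromosome 18 and 1.08 to 1.13 on the others.

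**Figure D3:**
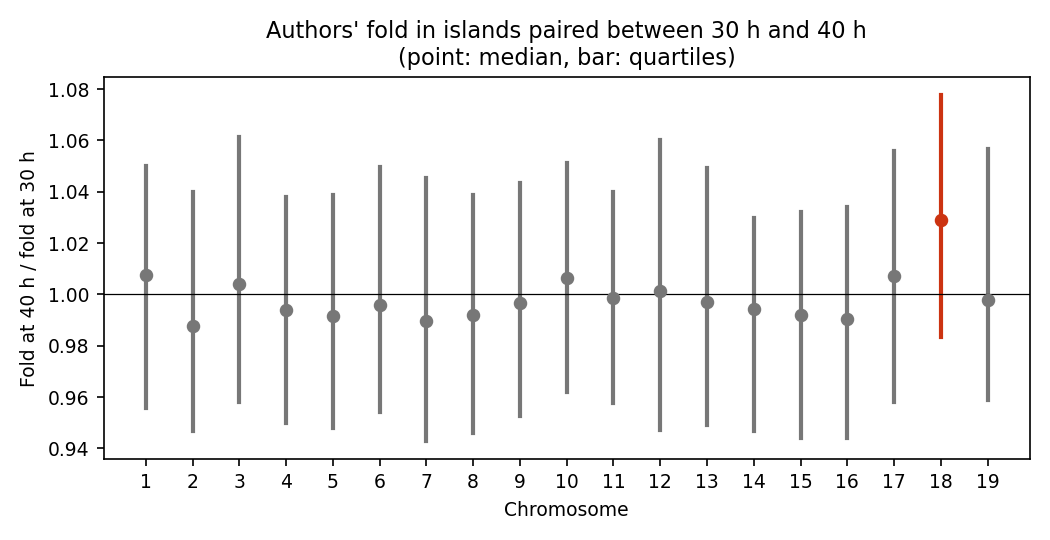
Authors' fold over control at 40 h divided by that at 30 h, in islands of both lists that cover each other by at least 50%, for each autosome; points are medians over islands and bars run between the quartiles. Chromosome 18 (red) has the highest median, 1.03, and its bar overlaps those of the other 18 autosomes.

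Along the chromosome, the higher coverage at 40 h than at 30 h was spread over most of its length. In bins of 5 Mb, 18 of 19 bins on chromosome 18 had more island length at 40 h than at 30 h, against 5 of 19 on chromosome 17, 6 of 13 on chromosome 19 and 25.9% of the bins of the other 18 autosomes. The bin that did not was the one from 85 to 90 Mb, with 131 kb at 40 h and 174 kb at 30 h. The ratio had a median of 1.43 over the 18 bins with at least 100 kb at 30 h, and it ran from 0.753 to 3.42. The highest ratio was near the start of the chromosome, from 5 to 10 Mb, where islands covered 589 kb at 40 h and 59 to 191 kb in the other 5 libraries. The largest gain in length was from 55 to 60 Mb, from 1267 to 2096 kb. Against all of the other 5 libraries the pattern was narrower. In the bins from 15 to 20 and 40 to 45 Mb, and in every bin from 60 to 90 Mb, another library had more island length. From 80 to 85 Mb, for example, the 40 h value of 1988 kb was below that of KO (2182 kb) and of 0 h (2139 kb).

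**Figure D4:**
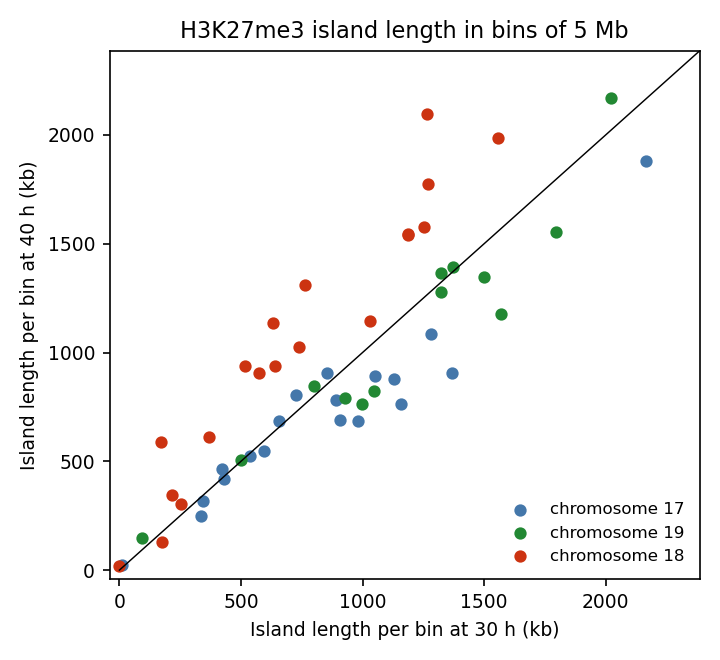
Island length per 5 Mb bin at 40 h against that at 30 h, in kb; each point is 1 bin of chromosome 17, 18 or 19 and the line marks equal length. Of the 19 bins of chromosome 18, 18 lie above the line, whereas most bins of chromosomes 17 and 19 lie below it.

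Bins with more island length at 30 h also tended to have more at 40 h. Across the 19 bins of chromosome 18, length at 40 h and at 30 h had a Pearson r of 0.961, and length at 0 h and in WT replicate 1 had an r of 0.865. These are descriptions over bins that share gene density and library, not over independent samples.

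Islands at 30 and 40 h shared 10212 kb on chromosome 18. That was 74.0% of the 30 h length, above the 52.5% to 66.1% of the other autosomes, and 51.3% of the 40 h length, below their 58.9% to 75.3%. Length in islands at 40 h and not at 30 h came to 9712 kb, and the reverse to 3591 kb. Chromosome 17 had 4139 and 6474 kb of these and chromosome 19 had 4063 and 5176 kb. In number, 253 islands of the 40 h list touched no 30 h island, and 47 of the 30 h list touched no 40 h island.

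Length present in both WT baseline lists was largely covered in each of the other libraries. Of those 10415 kb on chromosome 18, 76.1% were in islands at 30 h, 81.5% at 40 h, 87.5% at 96 h and 94.8% in KO. The other autosomes ran from 70.7% to 78.5% at 30 h and from 63.1% to 71.9% at 40 h. At 40 h, then, islands covered more of the WT baseline length on chromosome 18 than on those chromosomes, and 57.4% of the 40 h length of chromosome 18 lay outside it, the highest share of the 19 autosomes (29.7% to 55.4% on the others). In length this was 11434 kb, below the 13618 kb of chromosome 1. Of the length gained since 30 h, 32.2% lay in 0 h islands and 34.8% in 96 h islands, both below the lowest of the other autosomes (36.9% and 37.9%).

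On chromosome 18, 4120 kb, or 20.7% of the 40 h island length, lay in none of the other 5 lists. The other autosomes had 4.94% to 16.3%, highest on chromosome 10. Whole islands that touched no other list numbered 114 of 607 (18.8%), against 6.76% of all autosomal islands of the 40 h list. The same count on chromosome 18 was 2 for WT replicate 1, 11 for KO, 12 at 0 h, 9 at 30 h and 17 at 96 h.

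The islands seen only at 40 h were shorter and weaker than the rest. They had a median length of 19.5 kb, a median fold of 1.39, 589 ChIP reads and 1284 control reads, against 27 kb, 1.48, 824 and 1675 for the 40 h islands that touched another list. The same direction held at 40 h on chromosome 17 (20 against 24 kb, fold 1.28 against 1.47). It also held on chromosome 19 (20 against 27 kb, fold 1.36 against 1.45). The longest of them was chr18:25053001-25108000, 55 kb inside Fhod3, a formin gene that acts in muscle sarcomeres, with 1691 ChIP and 3817 control reads and a fold of 1.30. The next was chr18:23900001-23945000 over the zinc finger gene Zscan30, 45 kb with a fold of 1.39. All coordinates are of GRCm38.

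Genes made up less of that length than of the length in no list. Protein-coding genes covered 21.7% of the length in islands at 40 h alone, 45.2% of the length in all 6 lists and 39.5% of the length in no list. On chromosome 17 and chromosome 19, 34.0% and 27.5% of the 40 h alone length lay in genes. Peaks of H3K4me3, the mark of active and poised promoters, covered 0.137% of the chromosome 18 length at 40 h alone in WT replicate 1, against 2.17% of the length in no island list. Peaks of H3K9me3, the mark of silent repeats, covered 3.45% of it in WT, against 1.38% of the length in all 6 lists and 2.55% of that in none. On chromosomes 17 and 19 it covered 8.21% and 3.82% of the length at 40 h alone. Both marks were read at baseline, not at 40 h.

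The longest islands recurred between libraries. Around Spink10 and Spink13, genes of the Kazal family of protease inhibitors, and Apcdd1, an inhibitor of Wnt signalling, the longest island of KO (chr18:62626001-62971000, 345 kb) overlapped those of 30 h (chr18:62586001-62865000, 279 kb) and 40 h (chr18:62627001-62888000, 261 kb). The 40 h island had 8908 ChIP and 16146 control reads and a fold of 1.61, and 247 kb of it lay in 30 h islands. In WT replicate 1 the longest was chr18:52611001-53046000, 435 kb from Zfp474 to Sncaip, which encodes a partner of alpha-synuclein, with a fold of 1.77. At 96 h the longest covered the same genes (chr18:52568001-52876000, 308 kb, fold 1.66). A further island over Fbn2, which encodes the matrix protein fibrillin 2, was 296 kb in WT replicate 1 and 297 kb in KO, and the longest piece of it was 155 kb at 30 h and 153 kb at 96 h. Of the WT replicate 1 island, 275, 265, 286 and 278 kb lay in islands at 0, 30, 40 and 96 h. It was already in pieces at 0 h, such as chr18:58116001-58240000, and a piece at 40 h was chr18:58108001-58268000.

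At 0 h the longest was chr18:73757001-74040000, 283 kb from Me2, a mitochondrial malic enzyme, to Mapk4. It was followed by islands over Psd2 and Nrg2 (247 kb), Spink13 and Apcdd1 (245 kb), St8sia5 and Loxhd1 (234 kb), and Arsi to Pdgfrb (228 kb). The 5 longest at 40 h were, after the Spink10 to Spink13 island, 187 kb at chr18:58274001-58461000 with no protein-coding gene, 176 kb at Sncaip, 175 kb at Gnal and 171 kb at Epb41l4a. The Gnal island (chr18:66967001-67142000, fold 1.44) had 112 kb in 30 h islands, and the Epb41l4a island (chr18:33806001-33977000, fold 1.46) had 98 kb. Gnal encodes the G protein alpha subunit of olfactory neurons. Both domains were thus present in part at 30 h.

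Promoters were read as windows that reach 1 kb to each side of a protein-coding gene's presumed start. A gene was marked when an island touched its window. Of all 21887 genes, 7886 had no H3K4me3 peak at either end and 17 had a tie, and both ends were read for these. Of 511 genes on chromosome 18, 145 were marked in WT replicate 1, 162 in KO, 170 at 0 h, 110 at 30 h, 154 at 40 h and 152 at 96 h. Among all 21887 genes of the genome the marked share was 22.5%, 23.4%, 27.5%, 18%, 17.6% and 25% in the same order. At 40 h chromosome 18 stood at 30.1%, back near its share at 0 h (33.3%), whereas the whole genome stayed near its 30 h share. All 6 lists marked 86 of the 511 genes (16.8%), against 11.3% of all genes, and no list marked 304.

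Between 30 and 40 h, 56 promoters of chromosome 18 became marked and 12 ceased to be. The first is 11.0% of its genes, against 4.2% of all genes, in the contrast that chose the chromosome. The second is 2.35%, against 4.59%. Chromosome 17 had 33 and 39 such promoters, and chromosome 19 had 39 and 27. The 56 promoters rested on 41 islands, because neighbours share them, and 18 of the 56 were clustered protocadherins. Most of the 56 genes were read at both ends, so they had no assigned start. The alpha protocadherins among them were marked through 1 island at the end that they share, chr18:37164001-37193000. Of the 56, 12 had a 30 h island within 5 kb of the window, and 25 had one elsewhere in the gene. Of the 12 in the other direction, 6 had a 40 h island within 5 kb and 7 had one elsewhere in the gene, so these calls include edges that moved. Without the protocadherins the count was 38 of 454 genes (8.37%). Of the 56, 37 were marked in at least 1 WT baseline library (66.1%), against 82.3% on all other chromosomes. Promoters marked at 40 h and in no other list numbered 11 of the 511, against 0.525% of all genes.

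H3K4me3 gave a readout of these promoters that did not choose the chromosome, although it set the gene end that was used. In all 4 H3K4me3 libraries, 14 of the 56 promoters gained at 40 h carried a peak (25%), as did 27.1% of the gained promoters of other chromosomes. Of the promoters marked in all 6 lists, 18 of 86 did, and of those marked in none, 225 of 304. Most of the promoters gained on chromosome 18 thus lacked a peak in at least 1 of these libraries. The share with a peak in all 4 was near that of other chromosomes. Genes without any peak were read at both ends, which gave an island more places to mark them. The low share among marked promoters is thus in part set by the window rule, and nothing is concluded from it.

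Among promoters marked at 40 h and not at 30 h, the strongest by the authors' fold was Neto1, an auxiliary subunit of glutamate receptors in neurons. Its fold was 2.13 in WT replicate 1, 1.84 in KO, 2.10 at 0 h, 1.98 at 40 h and 2.55 at 96 h, with no island at 30 h. The same pattern, 5 lists with an island and 30 h without, held for Prdm6, a regulator of smooth muscle (1.85 at 40 h), Wnt8a, a Wnt ligand of the early embryo (1.77), Mc4r, the melanocortin receptor of hypothalamic neurons (1.69), and the neuropeptide Y receptor gene Npy6r (1.68). The nearest 30 h island lay 695 kb from the window of Neto1, 127 kb from that of Mc4r, 107 kb from that of Wnt8a and 17.3 kb from that of Npy6r, but 3.95 kb from that of Prdm6. Pcdhga3 and Pcdhga12 were marked in the same 5 lists, both at 40 h through 1 island with a fold of 1.88, and at 30 h an island with a fold of 1.68 lay under 1 kb from either window. Ss18, a subunit of the BAF chromatin remodelling complex, was marked at 40 h alone, by the island chr18:14685001-14698000 with a fold of 1.85, beside its presumed start.

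In the other direction, the strongest island at 30 h was at Wdr36, a gene of ribosome biogenesis, with a fold of 1.77 at 30 h and 2.11, 2.09 and 2.27 in WT replicate 1, KO and 0 h. Its window held no island at 40 and 96 h, but the island beside it was still listed and ended 1 kb earlier, 0.187 kb from the window at 40 h (chr18:32808001-32836000, fold 1.80). An edge moved there, and the fold did not fall. Nrg2, a neuregulin ligand of ERBB receptors, had a fold of 1.67 at 30 h and 2.18 at 96 h, and at 40 h an island with a fold of 1.74 lay 0.468 kb from its window. Kctd16, an auxiliary subunit of GABA-B receptors, had 1.54 at 30 h. Both its ends were read, and at 40 h the end at 40256305 lay in a listed island of 70 kb, chr18:40241001-40311000. That island had 2224 ChIP and 6482 control reads, a fold of 1.004 and an FDR of 0.424, and the filter removed it. Slc14a1, a urea transporter (1.47), Katnal2 (1.46) and Ppp2r2b (1.44) were the others named by the rule besides Pcdhgc4 and Pcdhgc5, which shared 1 island (1.63).

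The gene lists are read against all 511 genes of the chromosome, of which 28.4%, 31.7%, 33.3%, 21.5%, 30.1% and 29.7% were marked in WT replicate 1, KO, 0 h, 30 h, 40 h and 96 h. All genes of the chromosome thus also rose in number from 30 to 40 h, and no list was tested against them. Of 15 developmental transcription factors, 10 were marked in each WT baseline library and in KO, 6 at 30 h, 9 at 40 h and 10 at 96 h. The 3 that were absent at 30 h and present at 40 h were Mkx, a tendon factor (fold 1.67 at 40 h), Zfp521, a zinc finger factor of progenitors (1.52), and Rax, the eye field factor (1.61). At 30 h an island lay 1.25 kb from the window of Zfp521, and another (chr18:65939001-65968000, fold 1.73) lay over the other end of Rax, so for these 2 genes the call turned on the window. At Mkx the nearest 30 h island was 101 kb away. Zfp516 was marked in the baseline lists and at 96 h but at neither 30 nor 40 h. Pou4f3, Cdx1, Skor2, Setbp1, Nfatc1 and Sall3 were marked in all 6 lists, and Gata6, Zeb1, Onecut2, Tcf4 and Tshz1 in none. For Mkx the 96 h island, chr18:6998001-7010000, had a fold of 3.18, the highest on the chromosome at that time.

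Of 27 receptors, channels and related genes of neurons and endocrine cells, 23 were marked in WT replicate 1, 22 in KO, 24 at 0 h, 15 at 30 h, 16 at 40 h and 22 at 96 h. Only the net count changed little from 30 to 40 h, since 4 of the 27 became marked and 3 ceased to be. Of all 511 genes of the chromosome, 56 became marked and 12 ceased to be. The 4 were Hrh4, the H4 histamine receptor, Mc4r, Mc2r, the corticotropin receptor, and Neto1. At 30 h an island with a fold of 1.42 lay 0.68 kb from an Mc2r window, so that call turned on an edge. Mc2r was marked at its other end in the baseline lists and at 96 h. The 3 were Kctd16, Ppp2r2b and Dpysl3, a protein of axon growth. Chst9, Cbln2 and Dok6 were among those marked at 0 and 96 h and at neither time between. For Dok6 the folds were 2.17 at 0 h and 2.12 at 96 h, and for Cbln2, an organizer of synapses, 2.09 and 2.02.

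The 57 clustered protocadherins had 22 marked in WT replicate 1, 35 in KO, 37 at 0 h, 26 at 30 h, 41 at 40 h and 26 at 96 h, the highest number being at 40 h. These counts came from 3 to 8 islands per library, so they are not independent. In all 6 libraries the gamma cluster was covered from 37645001, in 1 island of 133 kb at 40 h (chr18:37645001-37778000, fold 1.88) and in 2 islands there at 30 h. The alpha genes Pcdha1 to Pcdhac1 were marked together at 40 h by chr18:37164001-37193000, with a fold of 1.41, and in KO by chr18:37179001-37196000, with a fold of 1.47. That island lies at the end that these genes share, not at their separate upstream ends. The beta genes Pcdhb11 to Pcdhb14 were marked at 40 h alone, by chr18:37416001-37450000 with a fold of 1.35.

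Of all 511 genes, 304 were marked in no list. Of 15 hepatocyte and metabolic genes, Cidea, a lipid droplet protein, and Me2 were marked in all 6 lists, and Mep1b, a metalloprotease subunit, was marked at 40 h alone (fold 1.46). The other 12, Ttr among them, were marked in none. Of 9 housekeeping genes only Ss18 was marked, at 40 h. Of 14 genes of growth signalling, 3 were marked at both 30 and 40 h (Mcc, Pdgfrb and Pmaip1), and the immediate early gene Egr1, the growth factor gene Hbegf, Apc, Smad2, Smad4 and Smad7 were in no list. The desmosomal and classical cadherins had no marked gene of 10 outside KO, where Dsc3 was marked (fold 1.496).

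**Figure D5:**
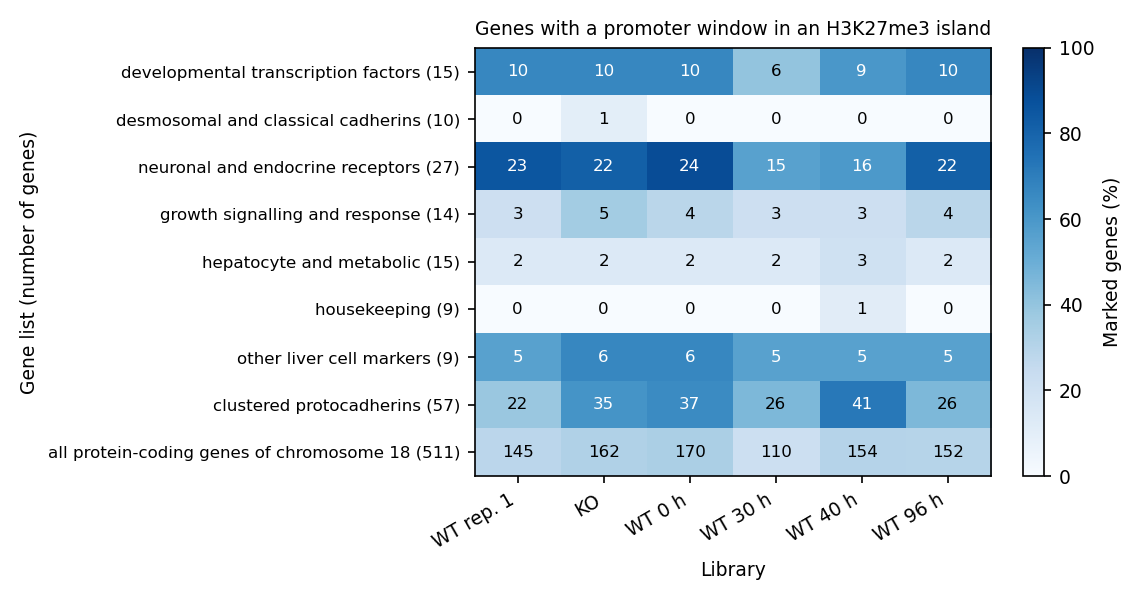
Number of genes on chromosome 18 with a promoter window in an H3K27me3 island, by gene list (rows, with the number of genes in parentheses) and library (columns); colour gives the percentage of the list. The transcription factors go from 6 marked genes at 30 h to 9 at 40 h, and the protocadherins from 26 to 41.

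Markers of the cell types that bulk liver holds were read on the same chromosome. Ttr, the hepatocyte marker, had no island. Of the 4 H3K4me3 libraries, 2 had a peak at Ttr, Csf1r and Pdgfrb, 3 at Cd74 and Lox, 4 at Cd14 and Ccbe1, and 0 at Fbn2, Spink1 and Cd226. The 2 were replicate 1 of WT and KO for Ttr, but replicate 2 of both, labelled round 2, for Csf1r and Pdgfrb. Peaks covered 45.5 Mb (WT) and 44.9 Mb (KO) in replicate 1, and 21.4 and 25.3 Mb in replicate 2. Cd14 (macrophages), Lox, Fbn2 and Pdgfrb (stellate cells and fibroblasts) and Ccbe1 (endothelium) were marked in all 6 lists, while Cd74, Spink1 and Cd226 were marked in none. Of the 9 markers of cells other than hepatocytes, 5 were marked in WT replicate 1 and at 30, 40 and 96 h, and 6 in KO and at 0 h, where Csf1r of macrophages was marked too. In KO the call at Csf1r came from the island that also marked Pdgfrb, chr18:61024001-61105000, which reached the window but not the gene. At 0 h it came from a separate island, chr18:61085001-61107000. Between 30 and 40 h none of the 9 changed its call.

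The KO library was compared with the WT baseline pair. KO islands covered 18.04 Mb of chromosome 18, and the WT libraries 14.4 ± 0.832 Mb (SD, n = 2), a difference of 3.66 Mb that was larger than the 1.18 Mb between the WT libraries. No test was run on this difference of 1 library from 2. The WT pair also differed in control library, and KO shared its control with WT replicate 1. The 0 h library was labelled round 3, and the labels give no round for WT replicate 1 or KO. The ratio of KO length to that of WT replicate 1 was 1.31, 4th of the 19 autosomes and within the range of 1.02 to 1.37 of the others. KO had the longest list of all, 499.9 Mb. When each list was limited to the same total length by falling fold, the KO difference on chromosome 18 was 0.768 Mb. The lengths there were then 12.8 Mb in KO, 12.5 Mb in WT replicate 1 and 11.6 Mb at 0 h.

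In KO, 15 promoters of chromosome 18 were marked that neither WT baseline library marked (2.94%, against 0.941% of all genes), and 5 were marked in both WT libraries and not in KO (0.978%, against 1.31%). The 15 rested on 11 islands, and 5 of them were alpha protocadherins. The strongest was Commd10, which takes part in endosomal sorting, with a fold of 2.01 in KO and 1.80 at 96 h. Its KO island, chr18:46946001-46958000, reached the window but not the gene, which begins at 46958819. Bambi, a pseudoreceptor that dampens TGF-beta signalling, had 1.79 in KO and 1.78 at 96 h. The KO island there, chr18:3487001-3507000, also ended before the gene, which begins at 3507011. Oacyl (1.72), Arl14epl (1.67) and Dsc3 were marked in KO alone, and Klhl14 (1.63) and Hrh4 (1.53) also at 40 h. In the other direction Il17b, a cytokine gene, had 2.65 and 2.02 in WT replicate 1 and at 0 h, and Kcnn2, a calcium-activated potassium channel, 1.37 and 1.92. Vmn1r238 met the rule with folds of 1.11 and 1.08 in a weak island near the start of the chromosome. Each of these KO calls rests on 1 library.

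The islands near the FDR limit showed how the filter acted on chromosome 18. At 40 h the last island inside had an FDR of 0.00123 and a fold of 1.12, and the first outside had 0.129 and 1.06. At 30 h these were 3.53e-07 and 1.27 inside, and 0.0217 and 1.08 outside. The largest control count among those outside was at 40 h at the start of the assembled chromosome, chr18:3000001-3022000, with 1042 ChIP and 9235 control reads and a fold of 0.330. The islands left out at 40 h were 5 of 612, and with them the 40 h islands covered 20.04 Mb in place of 19.9 Mb.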

How the data were processed

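Liver chromatin was digested with micrococcal nuclease and immunoprecipitated, per the labels, and H3K27me3 libraries gave 1 list of islands each. Per the submitters' processing notes the authors used SICER, MACS2, Picard, BWA, FastQC 0.11.5 and Trimmomatic, with the build GRCm38.p4; their settings and other versions were not stated there. The deposited H3K27me3 lists are SICER islands (window 1000 bp, gap 4000 bp, as the names of all 6 lists give them), called per library. They hold raw read counts of ChIP and control as deposited by the authors, without normalization, with the authors' p-value, their FDR as a q-value, and the authors' fold, a ratio scaled to library size. The baseline lists of WT replicate 1 and KO held no island over an FDR of 0.01 as deposited. The H3K4me3 and H3K9me3 peak lists carry the authors' score, fold enrichment ratio and −log10 of p and q, as deposited; only peak bounds were used here.

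Islands at an FDR of 0.01 or below were kept. Lengths, overlaps, 5 Mb bins, pairs (50% of each other) and shares were computed with pandas 2.3.3, numpy 2.4.6 and scipy 1.17.1 in Python 3.11.15 (figures: matplotlib 3.10.9), in code tested on simulated lists. Genes were 21887 protein-coding genes of a RefSeq table of GRCm38.p6, which gives no strand. The start-side end was therefore the one with more H3K4me3 peak length over 4 libraries, or both ends where neither had more. Genes named are the members of the lists, up to 8 promoters per change by the authors' fold, and genes of the longest islands; unnamed gene models were left out, and 1 gene chosen by this rule is not reported here. Fhod3, Zscan30 and Ap3s1 and the islands seen only at 40 h were singled out after their values were seen. The chromosome, lists and rule were chosen with earlier results of these data known. The number of reads per island limits precision.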

Additional observations from a re-analysis of the deposited data

How the results depend on the processing

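Of 93 alternative values for 23 results, 63 stayed within the spread used (the SD of the WT baseline pair; for the paired fold, the SD over the other autosomes' medians) or within 1.5 times a count. At equal total length the 40 h to 30 h length ratio of 1.44 became 1.54, the KO share 3.38% and the KO minus WT difference 0.768 Mb. A fold of 2 or more left 1 island (11 kb) at 30 h and 3 (37 kb) at 40 h on chromosome 18, so its values say little: the length ratio was 3.36, the KO difference 0.123 Mb, and 1 promoter was gained and 0 lost. Under it the shares of length were 2.54% in WT replicate 1, 2.79% in KO, 2.94% at 0 h, 1.64% at 30 h, 2.28% at 40 h and 2.87% at 96 h. The ChIP shares were 2.43%, 2.71%, 2.79%, 1.66%, 2.52% and 2.69% in the same order, and the control shares 2.56%, 2.82%, 1.75%, 2.25% and 2.86% without 0 h. With all islands as deposited, the ChIP share was 4.85% at 40 h and 3.16% at 96 h, and the control share 4.67% and 3.11%. Identical bounds left 2 pairs, with a fold ratio of 1.09 relative to the other autosomes, where the main ratio was 1.03. Counting genes with at least 10% of the body in islands gave 36 gained. The KO difference was 3.07 Mb and 4.25 Mb when either WT library was left out. Leaving out the protocadherins, chosen after seeing the data, gave 38 gained and 9 lost. No paired analysis was possible because the groups compared share fewer than 2 replicate numbers. The paired fold could not be computed at a fold of 2 or more, as no pair was left.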

Other observations

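The highest fold of the whole 40 h list stood on chromosome 18. It was a single window, chr18:46749001-46750000 inside Ap3s1, a subunit of an adaptor complex of endosomal traffic, with 186 ChIP and 71 control reads and a fold of 7.67. The next on the chromosome was another single window with no protein-coding gene, chr18:27646001-27647000, with 106 ChIP and 63 control reads and a fold of 4.93. Neither was in any of the other 5 lists. At 96 h the highest fold on chromosome 18 was 3.18, at Mkx.

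Other marks took a steady share of chromosome 18 at baseline. H3K4me3 peaks there made up 3.17% and 2.97% of all H3K4me3 peak length in the WT libraries, and 3.21% and 2.93% in the KO libraries. H3K9me3 peaks made up 3.50% in WT and 3.39% in KO. The same H3K9me3 shares were 4.95% and 5.11% on chromosome 17 and 1.63% and 1.70% on chromosome 19.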
